A study of Mus musculus with 24 samples.

Results

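The 39 protein-coding Hox genes of the mouse were described here, chosen as every row of the cell and tumor tables whose Ensembl identifier carries a protein-coding symbol of clusters A, B, C or D. Cluster A holds 11 of these genes, cluster B 10, cluster C 9 and cluster D 9. They were taken from 35275 identifiers in the table of cultured cells and 54532 in the table of tumors, and all 39 were listed in both.

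Hox genes encode homeodomain transcription factors that give cells their position along the head-to-tail axis of the embryo. Within a cluster, genes of low number are used toward the head and genes of high number toward the tail, and adult cells keep part of the pattern of the place they came from. The proteins bind DNA together with Pbx and Meis partners, Polycomb and Trithorax proteins hold the clusters silent or active, and retinoic acid is a classical inducer of the low-numbered genes.

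RNA-seq was performed on D2.1 and D2A1, which are mammary carcinoma lines that both came from D2 hyperplastic alveolar nodules of BALB/c mice. D2.1 is the line used as a model of dormancy and late outgrowth, and D2A1 is the proliferative line. Each line was measured in culture (3 libraries), as mammary fat pad tumors of female BALB/c mice with a full immune system (4 tumors), and as mammary fat pad tumors of female SCID-beige mice, which lack T and B cells and have impaired NK cells through the Prkdc scid and Lyst bg alleles (5 tumors). The labels give no further allele, transgene or treatment for any of the 6 groups. The same number of cells was implanted in every mouse, and tumors of both lines were collected at about the same size. The tumors were thus matched by size, and the time from implantation to collection may differ between the lines. The paper calls these D2.1 tumors later-stage, and levels in the early dormant phase were not measured. Each line is a single model of its behavior, so a difference between the lines cannot be told apart from a difference between these 2 cell populations, and each tumor library is whole tissue that also holds host cells. The study's methods call the points of its in vitro experiments technical replicates, so the p-values of cultured cells measure only the spread between these libraries, which may be technical.

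The reads counted on genes numbered 16837260 to 24818234 per library in cultured cells and 13566949 to 18355153 in tumors. Levels are given as CPM, which are counts scaled to the library total, and levels of different genes are compared as FPKM, which also divides by gene length. Of 10 mammary epithelial markers, 7 were counted in cultured D2.1 cells, with a summed level of 2400 to 4240 CPM, and 6 in cultured D2A1 cells, with 142 to 352 CPM. Krt5, Csn2 and Wap were at 0 in both lines in culture, and Elf5 was also at 0 in D2A1. For skin, D2.1 tumors 1 and 4 from BALB/c hosts stood apart, with 54.9 and 132 CPM summed over 10 keratinocyte markers. Every other tumor had at most 5.16 CPM. For skeletal muscle, D2.1 tumors 4 and 5 from SCID-beige hosts had 288 and 240 CPM summed over 10 markers. The remaining D2.1 tumors of that host had 3.45 to 21.2 CPM, and its D2A1 tumors at most 20.9 CPM. With BALB/c hosts this sum was 61.4 to 388 CPM for D2.1 and 9.27 to 92.6 CPM for D2A1. SCID-beige D2.1 tumors 4 and 5 were left out singly, and not both at once.

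The promoters shown first are those of Hoxa7, Hoxa9 and Hoxa10, neighbors on chromosome 6 of which only Hoxa9 was nearly silent in 1 line, and of Hoxd9, which lies in a cluster with few or no reads in culture. Each window covers 250 bases before to 50 bases after a transcript start, is written 5′ to 3′ on the strand of the gene, and comes from RefSeq on GRCm38.p6, the same build as mm10. Capitals mark CG dinucleotides, the letters that can be methylated in mammalian promoters.

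Hoxa7 (chr6:52218524-52218823, minus strand): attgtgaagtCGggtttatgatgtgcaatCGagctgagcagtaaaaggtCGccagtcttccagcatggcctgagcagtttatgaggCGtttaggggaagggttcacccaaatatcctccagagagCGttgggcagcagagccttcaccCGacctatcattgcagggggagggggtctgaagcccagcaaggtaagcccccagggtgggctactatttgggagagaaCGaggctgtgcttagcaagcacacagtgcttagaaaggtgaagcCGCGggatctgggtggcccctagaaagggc
Hoxa9 (chr6:52227321-52227620, minus strand): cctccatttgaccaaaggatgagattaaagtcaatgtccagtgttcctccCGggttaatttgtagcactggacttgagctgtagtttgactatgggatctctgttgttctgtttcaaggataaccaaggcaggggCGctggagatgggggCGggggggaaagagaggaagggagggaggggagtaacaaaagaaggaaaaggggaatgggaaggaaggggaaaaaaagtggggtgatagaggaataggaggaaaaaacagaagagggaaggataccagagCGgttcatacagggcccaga
Hoxa10, first start (chr6:52234890-52235189, minus strand): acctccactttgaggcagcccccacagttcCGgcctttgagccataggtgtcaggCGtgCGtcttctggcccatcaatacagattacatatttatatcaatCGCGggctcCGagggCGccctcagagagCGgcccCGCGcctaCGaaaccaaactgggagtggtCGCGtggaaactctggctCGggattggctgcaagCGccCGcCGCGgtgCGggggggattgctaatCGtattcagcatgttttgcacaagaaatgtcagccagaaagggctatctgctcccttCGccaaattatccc
Hoxa10, second start (chr6:52240805-52241104, minus strand): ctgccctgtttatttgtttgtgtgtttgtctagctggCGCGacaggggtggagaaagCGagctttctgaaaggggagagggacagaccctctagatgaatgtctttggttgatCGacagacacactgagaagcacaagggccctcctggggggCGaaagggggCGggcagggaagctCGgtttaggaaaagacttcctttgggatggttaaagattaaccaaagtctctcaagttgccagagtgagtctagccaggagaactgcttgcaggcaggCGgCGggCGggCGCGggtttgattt
Hoxd9 (chr2:74697513-74697812, plus strand): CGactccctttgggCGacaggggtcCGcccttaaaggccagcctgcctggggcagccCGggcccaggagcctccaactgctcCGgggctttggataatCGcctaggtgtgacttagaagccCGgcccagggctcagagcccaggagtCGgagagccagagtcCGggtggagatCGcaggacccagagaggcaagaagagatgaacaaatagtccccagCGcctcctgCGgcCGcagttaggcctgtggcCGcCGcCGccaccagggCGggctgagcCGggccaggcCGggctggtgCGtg

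The Hoxa9 window held 4 CG dinucleotides, against 9 at Hoxa7, 21 and 12 at the Hoxa10 starts and 20 at Hoxd9. RefSeq promoters were found for 22 of the 39 genes, with 24 starts, and their median was 14.5 CG dinucleotides against 7 over 32851 promoters of 27025 genes. Letters were searched on both strands, and TTTATNG can share letters with TATAAA on the opposite strand. The Pbx-Hox letters TGATNNAT were in 4 of the 24 Hox promoters (16.7%) and in 8.85% of all promoters. The posterior Hox letters TTTATNG were in 2 (8.33%) against 10.9%, and the nuclear receptor letters AGGTCA, the core of retinoic acid receptor sites, were in 7 (29.2%) against 16.3%. CCAAT boxes were in 15 (62.5%) against 37.4%, and TATAAA was in 4 (16.7%) against 13.6%. None of these letters were in the windows of Hoxa7, Hoxa9, Hoxd9 or the second Hoxa10 start, while the first Hoxa10 start held CCAAT and TATAAA. These counts describe the windows only, since binding and methylation were not measured.

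Cluster A carried most of the Hox transcripts in both lines. It took 93.4% to 94.2% of all Hox counts in cultured D2.1 cells and 99.1% to 99.9% in cultured D2A1 cells. In tumors its share was 71.5% to 83.0% for D2.1 in BALB/c mice, 77.5% to 87.7% for D2.1 in SCID-beige mice, 82.5% to 88.3% for D2A1 in BALB/c mice and 84.0% to 90.1% for D2A1 in SCID-beige mice. Summed over the 39 genes, the level was 232 to 263 CPM in cultured D2.1 cells and 128 to 139 CPM in cultured D2A1 cells. The genes by library show that the expressed stretch of cluster A ended with Hoxa10 in all 6 groups, with Hoxa9 low in D2A1.

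**Figure D1:**
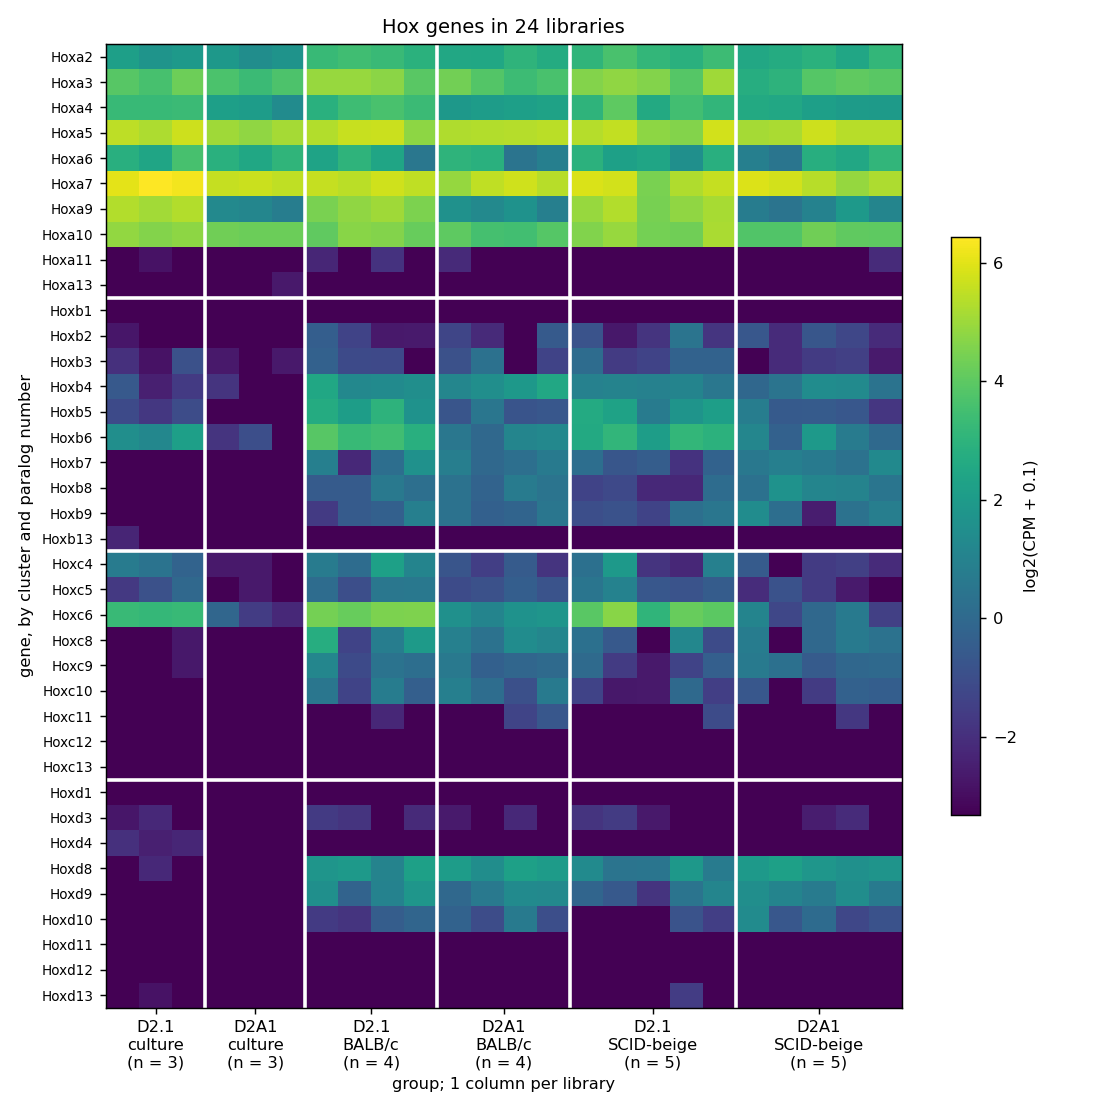
Level of Hox genes (rows, by cluster and paralog number) in each of the 24 libraries (columns, by group), as log2(CPM + 0.1). Hoxa2 to Hoxa10 are bright in every group, with Hoxa9 dimmer in D2A1, and many genes of clusters B, C and D have color in tumors but are dark in culture.

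With a group mean of at least 1 FPKM as the measure of detection, 11 of the 39 genes were detected in cultured D2.1 cells and 8 in cultured D2A1 cells. The 8 genes of D2A1 were all in cluster A, and D2.1 had Hoxa9, Hoxb6 and Hoxc6 in addition. In tumors 18 genes were detected for D2.1 and 14 for D2A1 in BALB/c mice, and 13 for each line in SCID-beige mice. FPKM lengths were not the same in both tables (cell to tumor ratio of 0.947 to 2.15 over 23 genes), so FPKM were not compared between culture and tumors. The highest FPKM within cluster A in culture was that of Hoxa7, at 37.9 ± 5.27 in D2.1 and 23.6 ± 1.18 in D2A1 (SD, n = 3), followed by Hoxa5 at 23.8 ± 3.72 and 17.1 ± 1.76. In D2.1 the next were Hoxa9 at 11.7 ± 1.06 and Hoxa10 at 10.5 ± 0.845 FPKM, whose ranges met (10.5 to 12.5 and 9.61 to 11.3). In D2A1 Hoxa10 was at 7.56 ± 0.237 FPKM and Hoxa9 at 0.634 ± 0.103 FPKM.

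At the other end, 6 genes had 0 counts in all 24 libraries (Hoxb1, Hoxc12, Hoxc13, Hoxd1, Hoxd11 and Hoxd12), and 11 genes had at most 10 counts in total. Hoxa11 and Hoxa13, the tail-end genes of cluster A, were in that second set. A count of 0 still allows up to 3 counts in a library by counting error alone. Of the 39 genes, 15 passed the filter on low counts in none of the 3 comparisons of the lines, 13 were called in at least 1, and the other 11 were tested without a call.

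The first question was whether the lines differ in culture, where no host cells are present. In cultured cells 12 members passed the filter and 8 were higher in D2.1, against 24.2% of all genes tested, and 0 were lower (edgeR's quasi-likelihood test, Benjamini-Hochberg adjusted p under 0.05, used throughout). Cluster A gave 5 of the calls, from 9 genes tested. Its median log2 fold change was 0.60, against -0.02 over all genes. The other 3 calls were Hoxb6, Hoxc4 and Hoxc6, which passed the filter only through D2.1, so that their direction was fixed by the filter. In the text, a gene passed only through 1 group when the other group alone had too few libraries at the filter level, which lay at 0.562 to 0.655 CPM. In tumors the lines were compared within each host, where, in bulk RNA, fewer cells of a type and less RNA per cell cannot be told apart: 24 members passed the filter in BALB/c mice, with 8 higher in D2.1 (16.8% of all genes) and 1 lower (15.8%), and 20 passed in SCID-beige mice, with 7 higher (17.2%) and 2 lower (14.8%). Over all genes and both directions, 44.9% were called in culture, 32.6% in BALB/c tumors and 32.1% in SCID-beige tumors. Both lines alone met the filter for 14 of the 24 members in BALB/c mice, of which 6 were higher and 1 was lower, and for 12 of the 20 in SCID-beige mice, of which 5 were higher and 0 were lower. The other tumor calls passed only through the line in which they were higher, and their direction was fixed by the filter. Hoxa4, Hoxa9 and Hoxa10 were called higher in D2.1 in all 3 comparisons and passed through both lines in each.

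**Figure D2:**
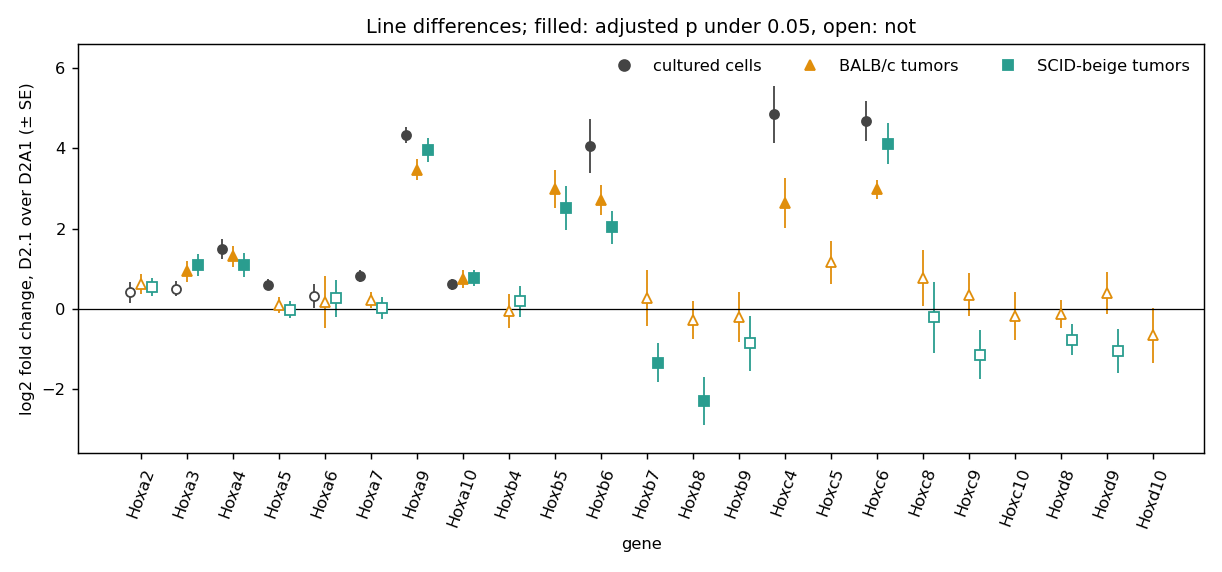
Log2 fold change of D2.1 over D2A1 with its standard error (y axis) for Hox genes that passed the filter (x axis), in cultured cells, BALB/c tumors and SCID-beige tumors. Hoxa9 lies between 3.47 and 4.33 in all 3 settings, while Hoxb7 and Hoxb8 are below 0 and filled in SCID-beige tumors.

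Hoxa9 showed the widest separation of the lines within cluster A. It patterns the trunk and limbs, maintains blood stem cells, is a known driver of leukemia, and acts with its paralogs in the mammary gland during pregnancy. In culture Hoxa9 was at 34.0, 39.3 and 40.3 CPM in D2.1 and at 1.68, 2.14 and 2.32 CPM in D2A1. The D2.1 tumors of BALB/c mice had 22.3, 22.6, 28.3 and 33.5 CPM and the D2A1 tumors 1.74, 2.34, 3.0 and 3.04 CPM. In SCID-beige mice Hoxa9 was at 21.5, 27.9, 30.7, 36.2 and 40.2 CPM in D2.1 and at 1.24, 1.61, 1.92, 2.07 and 3.65 CPM in D2A1. No D2A1 library reached the level of any D2.1 library in any setting. The log2 fold change of Hoxa9 was 4.33 ± 0.19 in culture (SE, adjusted p = 9.8e-07), 3.47 ± 0.27 in BALB/c mice (adjusted p = 7.7e-06) and 3.96 ± 0.29 in SCID-beige mice (adjusted p = 4.3e-07). Exons of Hoxa9 also cover Mir196b on the same strand, and reads of the 2 genes cannot be told apart where they overlap.

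The genes on either side of Hoxa9 did not show a gap of that size. Hoxa10, which patterns the uterus and is used with Hoxa9 in blood progenitors, was at 24.7, 27.6 and 28.9 CPM in cultured D2.1 cells and at 18.9, 19.1 and 20.1 CPM in cultured D2A1 cells. Hoxa10 in BALB/c mice was at 16.6, 17.8, 24.7 and 25.9 CPM in D2.1 tumors and at 11.1, 11.8, 14.4 and 16.3 CPM in D2A1 tumors. In SCID-beige mice its levels were 19.9, 21, 23.8, 30.6 and 36.5 CPM in D2.1 and 13.6, 13.9, 16.2, 16.8 and 19.9 CPM in D2A1. The lines were separate for Hoxa10 in culture and in BALB/c mice, and they met at a single level in SCID-beige mice. Its log2 fold changes were 0.61 ± 0.13 (adjusted p = 0.0057), 0.74 ± 0.22 (adjusted p = 0.024) and 0.77 ± 0.20 (adjusted p = 0.0094) in culture, BALB/c mice and SCID-beige mice. The call in BALB/c mice was lost when any 1 of 4 tumors was left out, namely D2.1 tumor 2 or 3 or D2A1 tumor 2 or 3 (adjusted p = 0.059 to 0.065).

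Hoxa7, a gene of thoracic identity on the other side of Hoxa9, separated the lines in culture, with 65.6, 78.1 and 87.0 CPM in D2.1 and 45.6, 47.6 and 50.4 CPM in D2A1. In BALB/c mice Hoxa7 was at 42.8, 45.1, 48.1 and 53.5 CPM in D2.1 tumors and at 29.8, 42.0, 45.8 and 52.9 CPM in D2A1 tumors. In SCID-beige mice it was at 22.5, 38.9, 47.7, 54.7 and 59.6 CPM in D2.1 tumors and at 29.9, 37.7, 42.0, 55.1 and 60.9 CPM in D2A1 tumors. The tumors of the lines overlapped almost fully for Hoxa7. Its log2 fold change was 0.81 ± 0.15 in culture (adjusted p = 0.0022), and 0.21 ± 0.20 (adjusted p = 0.46) and 0.02 ± 0.28 (adjusted p = 0.96) in BALB/c and SCID-beige tumors.

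A ratio of counts within a library does not depend on scaling between libraries. The ratio of Hoxa9 to Hoxa10 counts was 1.38 to 1.42 in cultured D2.1 cells and 0.0876 to 0.115 in cultured D2A1 cells. It was 1.09 to 1.36 against 0.121 to 0.274 in BALB/c tumors and 0.991 to 1.40 against 0.0913 to 0.217 in SCID-beige tumors. The ratio of Hoxa7 to Hoxa10 overlapped between the lines in all settings, at 2.27 to 3.53 and 2.37 to 2.66 in culture, 1.65 to 2.90 and 1.83 to 4.77 in BALB/c tumors, and 1.07 to 2.50 and 1.78 to 4.37 in SCID-beige tumors for D2.1 and D2A1.

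**Figure D3:**
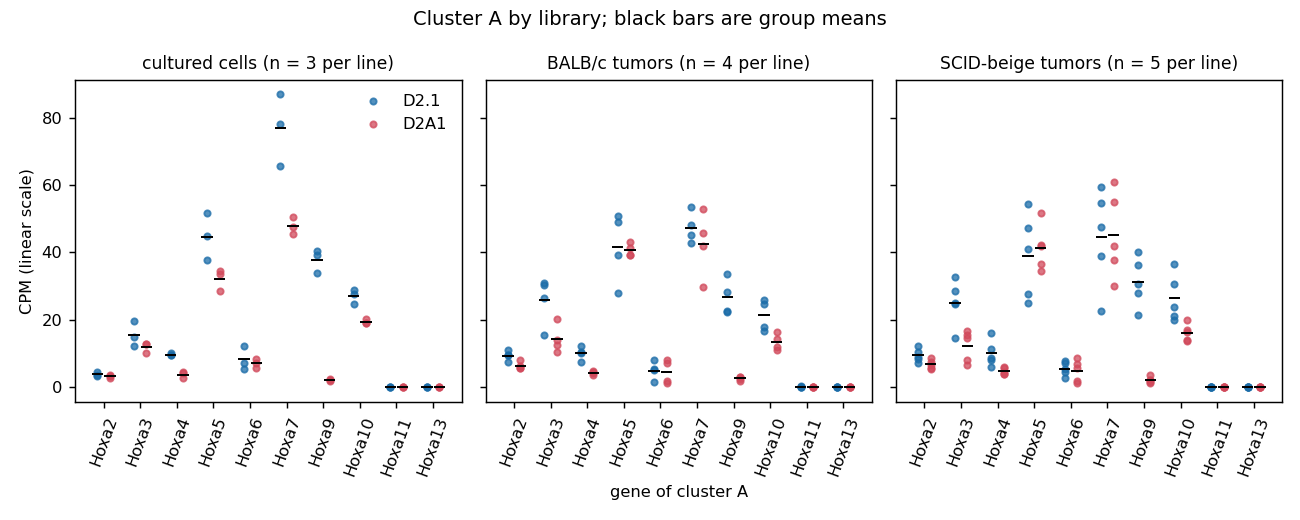
Level of 10 genes of cluster A in CPM on a linear scale (y axis), in cultured cells, BALB/c tumors and SCID-beige tumors. Each point is 1 library (blue D2.1, red D2A1) and bars are group means, and Hoxa9 is at most 3.65 CPM in all D2A1 libraries against at least 21.5 CPM in all D2.1 libraries.

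Toward the head end of the cluster, Hoxa4 and Hoxa3 were higher in D2.1, by less. Hoxa4, a gene of the neck and upper trunk, was at 9.43, 9.46 and 10.0 CPM in cultured D2.1 cells and at 2.54, 4.11 and 4.45 CPM in cultured D2A1 cells. Hoxa4 was at 7.30, 10.1, 10.5 and 12.3 CPM in D2.1 tumors from BALB/c hosts and at 3.57, 4.11, 4.47 and 4.87 CPM in D2A1 tumors of these mice. In SCID-beige mice Hoxa4 was at 6.00, 8.12, 8.59, 11.2 and 16.1 CPM for D2.1 and at 3.95, 3.98, 4.50, 5.68 and 6.03 CPM for D2A1. The lines were separate for Hoxa4 except in SCID-beige mice, where the lowest D2.1 tumor fell just under the highest D2A1 tumor. The log2 fold changes were 1.5 ± 0.25 (adjusted p = 0.0015), 1.31 ± 0.26 (adjusted p = 0.0033) and 1.09 ± 0.30 (adjusted p = 0.014) in culture, BALB/c mice and SCID-beige mice. Without D2.1 tumor 2 the call in SCID-beige mice was lost (adjusted p = 0.054).

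Hoxa3, which shapes the thymus, thyroid and parathyroid glands, was at 12.1, 14.8 and 19.5 CPM in cultured D2.1 cells and at 10.0, 12.8 and 12.9 CPM in cultured D2A1 cells. Hoxa3 in BALB/c mice was at 15.4, 26.5, 30.3 and 30.8 CPM in D2.1 tumors and at 10.3, 12.5, 14 and 20.3 CPM in D2A1 tumors. In SCID-beige mice the values were 14.6, 24.6, 24.9, 28.4 and 32.8 CPM for D2.1 and 6.63, 7.96, 14.7, 15.4 and 16.7 CPM for D2A1. In each setting 1 D2.1 library lay within the range of D2A1 and the others lay above it. Hoxa3 had a log2 fold change of 0.93 ± 0.26 in BALB/c mice (adjusted p = 0.022) and 1.1 ± 0.27 in SCID-beige mice (adjusted p = 0.0071). In culture it was 0.50 ± 0.19 (adjusted p = 0.060), and with the replicate number as a block the adjusted p was 0.010. Without cultured D2.1 replicate 2 it also passed (adjusted p = 0.045). The call in BALB/c mice was lost without D2.1 tumor 1 or D2A1 tumor 3 or 4 (adjusted p = 0.058 to 0.064). Exons of Hoxa3 overlap several antisense transcripts and Gm28308, and since no strand setting is stated, the source of reads in these overlaps is uncertain.

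Hoxa5, which directs lung development and can induce p53 in breast cells, was at 37.7, 44.8 and 51.7 CPM in cultured D2.1 cells and at 28.4, 33.5 and 34.6 CPM in cultured D2A1 cells. In BALB/c mice Hoxa5 was at 27.8, 39.3, 49.0 and 50.9 CPM in D2.1 tumors and at 39.2, 39.3, 41.2 and 43.2 CPM in D2A1 tumors. In SCID-beige mice it was at 25, 27.7, 40.9, 47.2 and 54.3 CPM and at 34.6, 36.5, 41.8, 42.3 and 51.6 CPM for D2.1 and D2A1. The lines were separate for Hoxa5 in culture and overlapped in tumors. The log2 fold change was 0.60 ± 0.14 in culture (adjusted p = 0.0070), 0.10 ± 0.20 in BALB/c mice (adjusted p = 0.72) and -0.02 ± 0.21 in SCID-beige mice (adjusted p = 0.95). Hoxa2, a gene of the second pharyngeal arch, and Hoxa6 were tested in all 3 settings without a call, with log2 fold changes of 0.41 to 0.61 for Hoxa2 and 0.18 to 0.32 for Hoxa6.

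In cluster B the calls lay in the middle of the cluster. Hoxb6, which marks the lateral mesoderm and limb bud, was at 2.18, 2.71 and 4.49 CPM in cultured D2.1 cells and at 0, 0.178 and 0.405 CPM in cultured D2A1 cells. Hoxb6 in BALB/c mice was at 7.05, 9.38, 10.8 and 14.9 CPM in D2.1 tumors and at 0.885, 1.38, 2.09 and 2.26 CPM in D2A1 tumors. In SCID-beige mice it was at 4.25, 5.96, 7.59, 8.55 and 8.70 CPM for D2.1 and at 0.718, 0.907, 1.56, 2.14 and 3.69 CPM for D2A1. The lines did not overlap for Hoxb6 in any setting. Its log2 fold changes were 4.06 ± 0.67 (adjusted p = 0.0013) in culture, 2.72 ± 0.37 (adjusted p = 0.00036) in BALB/c mice and 2.03 ± 0.42 (adjusted p = 0.0023) in SCID-beige mice.

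Hoxb5, a gene of vagal neural crest and of long-lived blood stem cells, had 0.201, 0.358 and 0.383 CPM in cultured D2.1 cells and 0 counts in every cultured D2A1 library, which gives a level at least 1.79-fold higher in D2.1 against a floor of 3 counts per library. In BALB/c mice Hoxb5 was at 3.07, 4.25, 6.37 and 7.90 CPM in D2.1 tumors and at 0.477, 0.5, 0.521 and 1.33 CPM in D2A1 tumors. In SCID-beige mice it was at 1.57, 3.20, 4.29, 4.87 and 6.20 CPM for D2.1 and at 0.194, 0.522, 0.587, 0.590 and 1.67 CPM for D2A1. The lines were separate in BALB/c mice, and in SCID-beige mice the lowest D2.1 tumor lay under the highest D2A1 tumor. The log2 fold change of Hoxb5 was 2.99 ± 0.48 in BALB/c mice (adjusted p = 0.00097) and 2.52 ± 0.55 in SCID-beige mice (adjusted p = 0.0034), and it was not tested in culture. Since only 1 D2A1 tumor in each host was at the filter level, Hoxb5 passed through D2.1 alone and this direction was fixed by the filter.

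Hoxb7 and Hoxb8, the next genes toward the tail end, were lower in D2.1 tumors of SCID-beige mice. Both had 0 counts in all 6 cultured libraries. Hoxb7, which drives growth of breast cancer cells when forced on, was at 0.172, 0.510, 0.640, 0.747 and 1.05 CPM in D2.1 tumors of SCID-beige mice and at 1.17, 1.41, 1.47, 1.76 and 2.40 CPM in the D2A1 tumors. Hoxb7 in BALB/c mice was at 0.118, 1.04, 1.74 and 2.94 CPM for D2.1 and at 0.885, 1.07, 1.51 and 1.69 CPM for D2A1. The lines were separate in SCID-beige mice, and in BALB/c mice the D2.1 tumors spanned the whole range of the D2A1 tumors. The log2 fold change of Hoxb7 was -1.34 ± 0.48 in SCID-beige mice (adjusted p = 0.047) and 0.26 ± 0.70 in BALB/c mice (adjusted p = 0.81). The first of these lost its call in 12 of 16 alternative settings, with an adjusted p of up to 0.12, among them the loss of any SCID-beige tumor other than D2.1 tumor 1. In SCID-beige mice Hoxb7 passed the filter only through D2A1, with 3 of 5 D2.1 tumors at the filter level.

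Hoxb8, a gene of the spinal cord and of myeloid progenitors, was at 0.114, 0.116, 0.292, 0.340 and 0.996 CPM in D2.1 tumors of SCID-beige mice, all below the D2A1 tumors at 1.14, 1.30, 1.96, 2.06 and 3.07 CPM. Hoxb8 in BALB/c mice was at 0.590, 0.599, 1.1 and 1.44 CPM for D2.1 and at 0.759, 1.19, 1.27 and 1.55 CPM for D2A1, and the lines overlapped. Hoxb8 had a log2 fold change of -2.30 ± 0.60 in SCID-beige mice (adjusted p = 0.010) and -0.28 ± 0.48 in BALB/c mice (adjusted p = 0.69). Only 1 of the 5 D2.1 tumors in SCID-beige mice was at the filter level, so Hoxb8 passed there through D2A1 alone and the lower value in D2.1 was fixed by the filter. The interaction of line and host did not pass the threshold for Hoxb8, at 2.02 ± 0.81 on the log2 scale (adjusted p = 0.51). Hoxb4 and Hoxb9 were tested in tumors without a call between the lines. Hoxb1, Hoxb2, Hoxb3 and Hoxb13 were not tested in any comparison of the lines. In culture Hoxb3 had 12 counts in D2.1 against 2 in D2A1, a ratio of 4.92 (95% counting interval 1.1 to 45.3), and Hoxb4 had 17 against 3, a ratio of 4.65 (95% counting interval 1.34 to 24.8), both covering counting error only.

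In cluster C the difference lay in Hoxc6 and its neighbors toward the head end. Hoxc6, a gene of thoracic identity known to be used in mammary gland, was at 8.99, 9.41 and 9.66 CPM in cultured D2.1 cells and at 0.116, 0.232 and 0.831 CPM in cultured D2A1 cells. Hoxc6 was at 18.1, 20.8, 22.6 and 23.3 CPM in D2.1 tumors from BALB/c hosts and at 2.02, 2.88, 3.04 and 3.30 CPM in D2A1 tumors. In SCID-beige mice it was at 8.33, 15.4, 15.7, 18 and 25.9 CPM for D2.1 and at 0.259, 0.326, 0.885, 1.5 and 2.01 CPM for D2A1. Every D2.1 library was above every D2A1 library for Hoxc6 in each setting. The log2 fold changes were 4.68 ± 0.49 (adjusted p = 0.00010), 2.98 ± 0.24 (adjusted p = 9.7e-06) and 4.11 ± 0.51 (adjusted p = 4.4e-05) in culture, BALB/c mice and SCID-beige mice. Hoxc6 passed the filter through both lines in BALB/c mice and through D2.1 alone in the other settings, with 1 of 3 cultured D2A1 libraries and 3 of 5 SCID-beige D2A1 tumors at the filter level.

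Hoxc4, which is used in activated B cells and the neck, was at 0.766, 1.21 and 1.58 CPM in cultured D2.1 cells, and only 2 counts were found over the cultured D2A1 libraries. The ratio of levels was 30.8 (95% counting interval 8.23 to 259). In BALB/c mice Hoxc4 was at 1.0, 1.58, 2.02 and 4.56 CPM in D2.1 tumors and at 0.174, 0.253, 0.5 and 0.596 CPM in D2A1 tumors, with a log2 fold change of 2.63 ± 0.62 (adjusted p = 0.0083). Only 1 of these 4 D2A1 tumors was at the filter level, so the direction of Hoxc4 was fixed by the filter in BALB/c mice too. In SCID-beige mice it was not tested, and levels of 0.114, 0.175, 1.11, 1.80 and 3.79 CPM for D2.1 and 0, 0.130, 0.221, 0.261 and 0.603 CPM for D2A1 overlapped. Hoxc5, between Hoxc4 and Hoxc6, had 31 counts in cultured D2.1 cells against 1 in D2A1, a ratio of 25.4 (95% counting interval 4.24 to 1040), and its log2 fold change in BALB/c mice was 1.16 ± 0.53 (adjusted p = 0.12). Hoxc8, Hoxc9 and Hoxc10, toward the tail end, were tested in BALB/c mice without a call. Hoxc11 was not tested in any comparison of the lines.

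In cluster D no gene was called between the lines with all libraries. None passed the filter in culture, where Hox cluster D summed to 0 CPM in every D2A1 library and to 0.109 to 0.363 CPM in D2.1. In tumors Hoxd8, Hoxd9 and Hoxd10 were tested, and their log2 fold changes ran from -0.66 to 0.39 in BALB/c mice and from -1.05 to -0.77 in SCID-beige mice, where 2 of them passed the filter. Without D2.1 tumor 4, Hoxd8 was called in SCID-beige mice, at -1.14 (adjusted p = 0.028). Hoxd3, Hoxd4 and Hoxd13 were not tested in any comparison of the lines, and exons of Hoxd3 and Hoxd4 overlap each other.

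The host comparison asks whether Hox levels differ between tumors of BALB/c and SCID-beige mice. These hosts differ in T, B and NK cells and in the Prkdc and Lyst alleles together, which cannot be told apart. With edgeR's quasi-likelihood test, 0 of 24 members tested were called between hosts for D2.1 tumors, where 0.891% of all genes were called (0.871% as higher and 0.0201% as lower in BALB/c mice), and 0 of 21 for D2A1 tumors, where 1.17% of all genes were called (0.906% as higher and 0.261% as lower in BALB/c mice). DESeq2 also called 0 in both. At an unadjusted p under 0.05 there was 1 member for D2.1, Hoxb4, at 0.84 ± 0.38 log2 units higher in BALB/c mice (adjusted p = 0.50). For D2A1 there were 2, Hoxc6 at 1.46 ± 0.54 (adjusted p = 0.32) and Hoxb4 at 1.06 ± 0.40 (adjusted p = 0.35). These comparisons use the same tumors as the comparisons of the lines. Hoxa9 differed between hosts by -0.22 ± 0.22 for D2.1 and 0.26 ± 0.35 for D2A1 on the log2 scale. In the interaction of line and host 0 of 25 members were called with edgeR, where 0.0187% of all genes were called, 1 had an unadjusted p under 0.05, and DESeq2 called 0.

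The comparison of tumors with cultured cells of the same line covers the growth in the mouse, and it used SCID-beige tumors. Tissue, host cells, table and any batch all change together here and cannot be told apart. Of 9 genes of cluster A tested, 1 was higher (30.8% of all genes) and 1 was lower (22.3%) in D2.1 tumors. In D2A1 tumors 1 was higher (33.6% of all genes) and 0 were lower (24.5%). Hoxa2 was the gene that was higher, by 1.17 ± 0.28 log2 units in D2.1 (adjusted p = 0.0047) and 1.02 ± 0.26 in D2A1 (adjusted p = 0.0061). Hoxa2 ran from 3.22 to 4.50 CPM in cultured D2.1 cells and from 7.21 to 12.3 CPM in SCID-beige D2.1 tumors. Hoxa7 was lower in D2.1 tumors, by 0.93 log2 units with an SE of 0.27 (log2 fold change -0.93, adjusted p = 0.014), and this call was lost without cultured D2.1 replicate 2 (adjusted p = 0.070). Hoxa3 in D2.1 was at 0.57 ± 0.25 (adjusted p = 0.081) and was called without D2.1 tumor 4, at 0.71 (adjusted p = 0.012). For D2A1 the log2 fold change of Hoxa7 was -0.16 ± 0.24 (adjusted p = 0.59). Hoxa9 did not pass the threshold in either line, at -0.41 ± 0.21 (adjusted p = 0.11) and -0.07 ± 0.39 (adjusted p = 0.90). In D2A1, Hoxa6 was at -0.65 ± 0.50 (adjusted p = 0.28), and with the replicate number as a block it was at -1.46 (adjusted p = 0.0042). D2A1 tumors 4 and 5 share no number with a cultured library, so that block compares only tumors 1 to 3 with culture.

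Over the 4 clusters, 19 members passed the filter for D2.1, with 7 higher (30.8% of all genes) and 1 lower (22.3%, or 53.1% in either direction), and 19 passed for D2A1, with 10 higher (33.6% of all genes) and 0 lower (24.5%, or 58.1% in either direction). In D2.1, 7 members passed through the tumors alone and 5 of them were called, and in D2A1 this was so for 10 members with 9 called. All of these lie in clusters B, C and D, their direction was fixed by the filter, and the counts are a description. Of the 13 genes with 0 counts in all 6 cultured libraries, 4 had a count in every tumor. Hoxd8 and Hoxd9, singled out here after their values were seen, are examples of cluster D, which shapes limbs and trunk. Hoxd8 had 0, 0 and 0.121 CPM in cultured D2.1 cells and 0 counts in cultured D2A1 cells, and ran from 1.25 to 3.61 CPM in SCID-beige D2.1 tumors and from 2.93 to 4.63 CPM in SCID-beige D2A1 tumors. That is a ratio of 42.5 in D2.1 (95% counting interval 14.3 to 208) and a level at least 20.5-fold higher in D2A1 tumors. Hoxd9 had 0 counts in culture in both lines and was at least 6.67-fold and at least 12.0-fold higher in D2.1 and D2A1 tumors.

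In cluster B the mean level in tumors was at least 4.27-fold and at least 9.38-fold higher than in culture for Hoxb7 in D2.1 and D2A1, at least 2.54-fold and at least 10.9-fold higher for Hoxb8, and at least 4.86-fold and at least 7.53-fold higher for Hoxb9. Single tumors can lie lower. Hoxb8 ran from 0.114 to 0.996 CPM in D2.1 tumors, and its lowest tumor lay under the culture floor of 0.121 to 0.164 CPM. Hoxb9 ran from 0.0737 to 2.61 CPM in D2A1 tumors. Neither Hoxb8 nor Hoxb9 passed the filter in D2.1. Hoxb4 in both lines, Hoxb5 in D2.1 and Hoxb6 in D2A1 passed through the tumors alone. Hoxb4, a gene used to expand blood stem cells, was higher in D2.1 tumors by 2.52 ± 0.61 log2 units (adjusted p = 0.0049), and in D2A1 the ratio to 3 counts in culture was 28.5 (95% counting interval 9.52 to 140). Hoxb5 was higher in D2.1 tumors by 3.54 ± 0.56 log2 units (adjusted p = 0.00038) and in D2A1 tumors at least 4.07-fold higher. Hoxb6, which D2.1 cells already used in culture, was higher in D2.1 tumors by 1.05 ± 0.35 (adjusted p = 0.026) and in D2A1 tumors by 3.05 ± 0.85 log2 units (adjusted p = 0.0095). The first of these calls was lost without cultured D2.1 replicate 1 (adjusted p = 0.095) or 2 (adjusted p = 0.12) and without D2.1 tumor 2 (adjusted p = 0.052). In cluster C, Hoxc8 and Hoxc9 of D2A1 were at least 5.89-fold and at least 5.70-fold higher in tumors on average, while in D2.1 single counts in culture gave ratios of 53.5 (95% counting interval 9.31 to 2140) and 27.1 (95% counting interval 4.57 to 1100). By tumor, Hoxc8 ran from 0 to 1.61 CPM in D2A1 and from 0 to 2.17 CPM in D2.1. Hoxc9 ran from 0.590 to 1.54 CPM in D2A1 and from 0.0582 to 0.935 CPM in D2.1. Neither Hoxc8 nor Hoxc9 passed the filter in D2.1. Hoxc6 did not pass the threshold in either line, at 0.69 ± 0.32 (adjusted p = 0.085) and 1.24 ± 0.82 (adjusted p = 0.22). Without D2.1 tumor 3, Hoxc6 was called in D2.1, at 0.87 (adjusted p = 0.010).

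The interaction of line and growth tested whether the lines differ in this change. With edgeR 0 of 24 members were called, against 12.8% of all genes (4.62% higher and 8.18% lower), 2 had an unadjusted p under 0.05, and DESeq2 called 0. The 2 were Hoxb6 at -2.01 ± 0.86 (adjusted p = 0.14) and Hoxd8 at -3.77 ± 1.65 (adjusted p = 0.16). Hoxb7, Hoxb8, Hoxb9, Hoxc10 and Hoxd9 had 0 counts in both lines in culture. Their SE ran from 641.54 to 5034.05 log2 units, so this test could not call them whatever the tumors held.

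Medians of the summed fibroblast, endothelial and leukocyte markers and of clusters B, C and D were higher in each line's tumors than in culture. In SCID-beige mice fibroblast markers and clusters B and C had higher medians in D2.1 than in D2A1 tumors. Cluster D had a lower median in D2.1, at 3.45 against 6.06 CPM. The summed level of 10 fibroblast markers was 125 to 187 CPM in cultured D2.1 cells, with all 10 counted, and 40.7 to 77.3 CPM in cultured D2A1 cells, with Dcn, Lum, Dpt, Thy1 and Dpep1 at 0. In tumors all 10 were counted, with sums of 1640 to 2200 CPM for D2.1 and 520 to 685 CPM for D2A1 in BALB/c mice, and of 973 to 2140 CPM and 476 to 911 CPM in SCID-beige mice. Fibroblast markers also differed between the lines. All 3 that passed the filter in culture were higher in D2.1 (24.2% of all genes), 1 of them through D2.1 alone. In D2.1 tumors from BALB/c hosts 9 of 10 were higher (16.8% of all genes). In D2.1 tumors of SCID-beige mice 6 were higher (17.2%) and 1 was lower (14.8%). Endothelial markers went the other way, with 7 of 10 lower (15.8% of all genes) and 1 higher (16.8%) in D2.1 tumors from BALB/c hosts. In SCID-beige mice 8 were lower (14.8%) and 1 was higher (17.2%). The sum of 10 endothelial markers was 2.34 to 4.16 CPM in culture, where Kdr, Emcn and Cldn5 were at 0 in D2A1, 93.7 to 206 CPM in D2.1 tumors and 308 to 398 CPM in D2A1 tumors.

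The sum of 10 leukocyte markers was 0.238 to 1.53 CPM in culture. In BALB/c mice it was 595 to 766 CPM in D2.1 tumors and 458 to 691 CPM in D2A1 tumors, and in SCID-beige mice it was 278 to 709 CPM (median 493) in D2.1 and at most 326 CPM (median 262) in D2A1. In SCID-beige mice 4 of 5 D2.1 tumors lay above every D2A1 tumor in this sum. Of 8 leukocyte markers that passed the filter in BALB/c mice, 5 were higher (16.8% of all genes) and 1 was lower (15.8%) in D2.1. Of 5 in SCID-beige mice, 4 were higher (17.2%) and 0 were lower (14.8%). In cultured cells Cd3e, Cd3d and Cd8a were at 0 in D2.1, and Adgre1 was among those at 0 in D2A1. The part of host cells in the tumor levels of clusters B, C and D, and in the differences between the lines in tumors, was not tested. Leaving out D2.1 BALB/c tumors 1 and 4, whose adipocyte, muscle or skin markers were high, gave 9 calls between the lines in BALB/c mice, the same number as with all tumors.

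**Figure D4:**
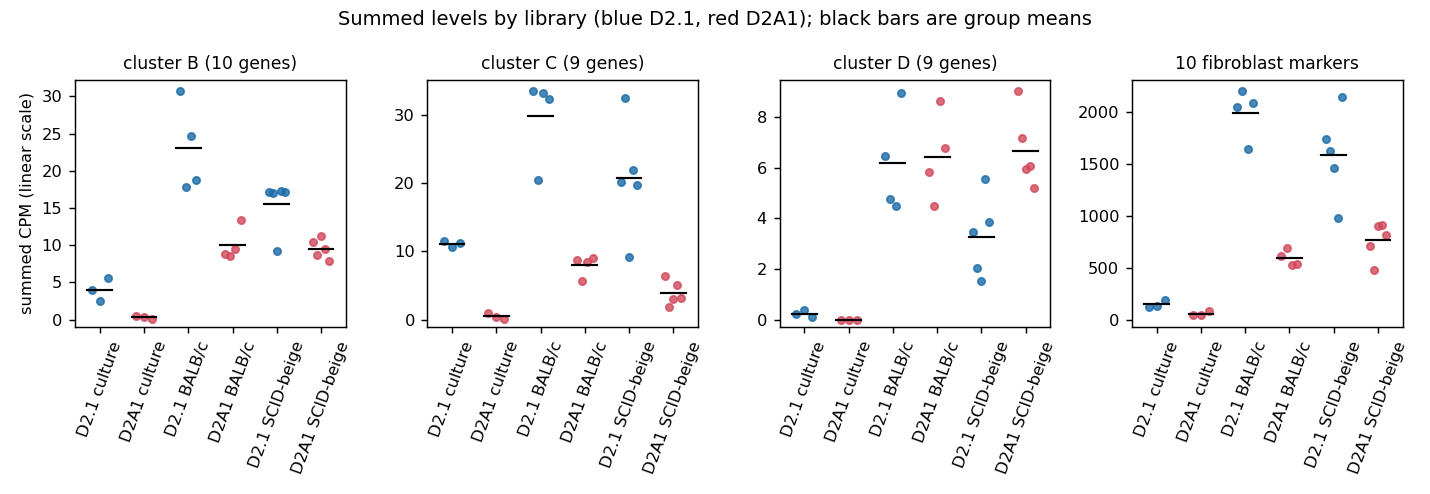
Summed CPM (y axis, linear scale) of Hox clusters B, C and D and of 10 fibroblast markers in the 6 groups (x axis), with 1 point per library and bars for group means. Cluster D is at 0 in cultured D2A1 cells and at 1.51 to 9.04 CPM in tumors. Fibroblast markers are at 1640 to 2200 CPM in D2.1 tumors from BALB/c hosts, which overlap the D2.1 tumors from SCID-beige hosts at 973 to 2140 CPM.

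By library, cluster B summed to 2.50 to 5.53 CPM in cultured D2.1 cells and 0.0578 to 0.416 CPM in cultured D2A1 cells. It reached 17.8 to 30.7 CPM in D2.1 tumors and 8.53 to 13.4 CPM in D2A1 tumors of BALB/c mice, and 9.20 to 17.3 CPM and 7.91 to 11.2 CPM in SCID-beige mice. Cluster C summed to 10.6 to 11.5 CPM in cultured D2.1 cells and 0.116 to 0.891 CPM in cultured D2A1 cells. It reached 20.5 to 33.5 CPM and 5.63 to 9.04 CPM in BALB/c mice and 9.14 to 32.5 CPM and 1.89 to 6.43 CPM in SCID-beige mice for D2.1 and D2A1. The lines were separate for cluster C in all 3 settings and for cluster B in culture and in BALB/c mice.

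Among the partners of Hox proteins, the 9 genes of the Pbx, Meis and Prep families, 7 passed the filter in culture and 4 were lower in D2.1 (20.7% of all genes), 0 were higher (24.2%), and Meis1 was at 0 in both lines. Of the 4, 2 passed through D2A1 alone. In tumors 1 of 7 was higher (16.8% of all genes) and 1 was lower (15.8%) in BALB/c mice, and 3 of 6 were higher (17.2%) and 2 were lower (14.8%) in SCID-beige mice. Meis2, a DNA-binding partner of Hox proteins, was lower in D2.1 in all 3 settings, by log2 fold changes of -4.78 ± 0.47 (adjusted p = 7.2e-05) in culture, -2.44 ± 0.65 (adjusted p = 0.016) in BALB/c mice and -2.13 ± 0.57 (adjusted p = 0.011) in SCID-beige mice. Meis2 ran from 0.0403 to 0.307 CPM in cultured D2.1 cells and from 5.40 to 6.6 CPM in cultured D2A1 cells. It passed the filter through D2A1 alone in all 3 settings, with 0 of 3 D2.1 libraries in culture, 1 of 4 in BALB/c mice and 2 of 5 in SCID-beige mice at the filter level, so its direction was fixed by the filter. Meis3 was lower in D2.1 in culture and in SCID-beige mice, at -1.13 and -0.80 on the log2 scale.

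The chromatin regulators of Hox clusters were called in both directions, with shares near those of all genes in culture. Of 28 Polycomb genes, which keep Hox genes silent, 3 were higher and 9 were lower in cultured D2.1 cells, that is 42.9% called in either direction against 44.9% of all genes, with a median log2 fold change of -0.06 against -0.02 over all genes. In tumors 2 were higher and 2 lower in BALB/c mice (14.3% against 32.6% of all genes), and 1 was higher and 5 were lower in SCID-beige mice (21.4% against 32.1%). Cbx2, a reader of the Polycomb histone mark, was at -1.64 ± 0.16 in culture (adjusted p = 5.8e-05), -0.27 ± 0.20 in BALB/c mice (adjusted p = 0.32) and -0.81 ± 0.19 in SCID-beige mice (adjusted p = 0.0046). Cbx7, another reader, and Pcgf5 were lower in culture, by log2 fold changes of -1.55 and -1.54. Of 13 Trithorax genes and H3K27 demethylases, which keep Hox genes active, 2 were higher and 3 were lower in cultured D2.1 cells (38.5% against 44.9% of all genes), and 1 was higher and 3 were lower in each kind of tumor (30.8% against 32.6% and 32.1%). Kmt2d, a histone H3 lysine 4 methyltransferase, was higher in D2.1 by 0.78 ± 0.15, 1.28 ± 0.27 and 0.97 ± 0.20 log2 units in culture, BALB/c mice and SCID-beige mice (adjusted p = 0.0025, 0.0050 and 0.0026). Wdr5, a core subunit of these methyltransferases, was lower in all 3, at -0.94 ± 0.15, -0.84 ± 0.17 and -0.86 ± 0.16 (adjusted p = 0.0011, 0.0040 and 0.0010).

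The Cdx and retinoic acid pathways act upstream of Hox genes. The 20 genes listed for them include genes that make retinoic acid and genes that lower it. Of these 20, 10 passed the filter in culture, and 9 were higher in D2.1 (24.2% of all genes) and 0 were lower (20.7%). The median log2 fold change was 2.02 over the 10 that passed. Both lines alone met the filter for 6 of these, of which 5 were higher, and the other 4 passed through D2.1 alone. In tumors 6 of 15 were higher (16.8% of all genes) and 2 lower (15.8%) in BALB/c mice, and 6 of 13 were higher (17.2%) and 3 lower (14.8%) in SCID-beige mice. The Cdx genes, which activate trunk Hox genes in the embryo, were at or under 0.456 CPM in every library. Aldh1a3, which makes retinoic acid, was at 15.3 to 29.4 CPM in cultured D2.1 cells and 0.405 to 1.19 CPM in cultured D2A1 cells, and its log2 fold changes were 5.34 ± 0.47, 4.19 ± 0.53 and 5.59 ± 0.51 in culture, BALB/c mice and SCID-beige mice (adjusted p = 3.8e-05, 0.00023 and 2.7e-06). Cyp26b1, which breaks retinoic acid down, was also higher in D2.1, by 4.77 ± 0.48, 2.50 ± 0.21 and 1.95 ± 0.24 log2 units (adjusted p = 8.6e-05, 1.5e-05 and 3.8e-05). Dhrs3, which turns retinaldehyde back to retinol, was higher in D2.1 by 6.21 ± 0.38 in culture (adjusted p = 4.6e-06) and 0.76 ± 0.20 in SCID-beige mice (adjusted p = 0.011), and was at 0.59 ± 0.22 in BALB/c mice (adjusted p = 0.062). In culture Aldh1a3, Cyp26b1 and Dhrs3 passed the filter through D2.1 alone, as Aldh1a3 did in both kinds of tumor, so that these directions were fixed by the filter. For Dhrs3 and Cyp26b1 the interaction of line and growth was called, at -5.44 ± 0.44 (adjusted p = 1.7e-07) and -2.81 ± 0.51 (adjusted p = 0.00092).

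Noncoding transcripts of the Hox clusters were sparse. Of 26 listed, 4 passed the filter in culture, with 1 higher in D2.1 (24.2% of all genes), Hoxaas3, which lies antisense to Hoxa3 and Hoxa7 (1.03 ± 0.34 log2 units, adjusted p = 0.035). In BALB/c tumors 2 were higher (16.8% of all genes) and 1 lower (15.8%) of 7 tested, and in SCID-beige tumors 1 was higher (17.2%) and 2 were lower (14.8%) of 6. Halr1, a long noncoding RNA near the head end of cluster A, was singled out after its values were seen. It was at 0.231 to 1.23 CPM in D2.1 tumors and at 4.69 to 9.71 CPM in D2A1 tumors of BALB/c mice, and at 0.877 to 1.87 CPM and 10.7 to 22.0 CPM in SCID-beige mice. Halr1 had a log2 fold change of -3.36 ± 0.49 in BALB/c mice (adjusted p = 0.00056) and -3.73 ± 0.30 in SCID-beige mice (adjusted p = 8.8e-07). It passed the filter in BALB/c mice through D2A1 alone, with 3 of 4 D2.1 tumors at the filter level, and in SCID-beige mice through both lines. In culture Halr1 was at 0.153 to 0.403 CPM in D2.1 and at 0 to 0.0579 CPM in D2A1, and the interaction of line and growth was called, at -6.59 ± 0.74 (adjusted p = 7.6e-06).

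Of 17 genes flanking the clusters, 12 passed the filter in culture, with 6 higher (24.2% of all genes) and 2 lower (20.7%) in D2.1 and a median log2 fold change of 0.34. In tumors 3 of 12 were higher (16.8% of all genes) and 5 were lower (15.8%) in BALB/c mice, and 4 of 12 were higher (17.2%) and 1 was lower (14.8%) in SCID-beige mice. Those named by size in culture were Calcoco1 at 1.23, Atp5g2 at 0.86 and Skap2 at 0.78 on the log2 scale. The homeobox neighbors Evx1 and Evx2, at the tail ends of clusters A and D, were at 0 in all 6 groups.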

How the data were processed

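RNA was extracted from cultured cells and snap-frozen tumors, and libraries were made and sequenced by Novogene on an Illumina NovaSeq. The authors deposited unnormalized read counts per Ensembl gene and FPKM values. The deposited FPKM are these counts divided by a gene length and by the library total, which was checked on 100% of genes within 0.1%. The submitters' processing notes name STAR and mm10. The counting program, annotation and strand setting are not given in the sources used here, and 10 Hox genes overlap antisense exons and 9 overlap exons of a gene on the same strand. Identifiers were matched to GENCODE M21 (GRCm38). Identifiers without a match held 0.0969% and 0.00594% of counts. Unmapped sample columns numbered 0.

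Changed genes were called with edgeR 4.0.16 (R 4.3.3) with TMM normalization, filterByExpr, robust quasi-likelihood fits and Benjamini-Hochberg adjustment over all genes tested at 0.05. Only the groups compared entered a fit, the interactions using all 4 groups. Tumors and cultured cells were joined on 34519 shared identifiers. CPM were counts scaled to the library total, without TMM factors. Folds against groups at 0 are bounds of the other group's mean against 3 counts per library. Ratios to 1 to 3 counts pool the libraries of a group and carry exact 95% intervals, which cover counting error only. The procedure was tested on simulated data. Alternatives were DESeq2 1.42.0, its size factors, 2 other filters, the replicate block, 1 fit of all 18 tumors, and each library left out. FPKM with union exon lengths and leaving out D2.1 BALB/c tumors 1 and 4 were chosen after seeing the data.

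Per-library values are given for the members called between the lines whose mean reached 1 CPM in some group, and at most 3 genes per other list are named by size in culture, except that some genes are not reported here. Members and lists were chosen with earlier results of these data known. Replicate numbers are shared by the groups. The correlation of deviations between same-numbered libraries was over 0.1 for the lines in culture (0.184 to 0.491), for both kinds of BALB/c tumor (0.1 to 0.491, the lowest rounded) and for D2A1 tumors against culture (0.131 to 0.273), and the numbers were therefore treated as pairing these libraries, with no shared day or batch named in any source. Between the lines in SCID-beige mice the correlation was 0.179 to 0.344 for replicates 1, 2, 3 and 5 and -0.161 for replicate 4. Those tumors were therefore not treated as paired, although most of them correlated. Reported p-values come from fits without a replicate block unless the block is named.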

Additional observations from a re-analysis of the deposited data

Results flagged for a closer look

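In 5 of 68 groups of values tested, the highest or lowest library lay far from the others by Dixon's test, where chance gives about 1 in 20. Hoxb5 was at 1.33 CPM in D2A1 BALB/c tumor 2, above the other D2A1 tumors of that host (0.477 to 0.521 CPM). Hoxb5 was at 1.67 CPM in D2A1 SCID-beige tumor 1, where the other tumors had 0.194 to 0.590 CPM. Hoxb8 was at 0.996 CPM in D2.1 SCID-beige tumor 5, against 0.114 to 0.340 CPM in the others. Cluster B summed to 9.20 CPM in D2.1 SCID-beige tumor 3, the lowest of the group, and cluster C summed to 20.5 CPM in D2.1 BALB/c tumor 2, also the lowest of its group.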

How the results depend on the processing

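No log2 fold change of a Hox gene that was called, as reported or under an alternative, reversed direction. Those never called were not checked for direction. Of the recomputed counts, 181 stayed within 1.5 times the reported count. Of the others, DESeq2 called 14 members instead of 9 between the lines in SCID-beige mice and 14 instead of 8 between D2.1 tumors and culture, where 15 were called without a filter on low counts. With at least 0.5 FPKM as the limit, 20 instead of 13 genes were detected in D2A1 SCID-beige tumors. The cause of these was not tested, except that the looser limits test or admit more genes. Without cultured D2A1 replicate 1, which holds the only Hoxb4 counts of that group, 1 member instead of 0 was called in the interaction of line and growth, Hoxb4 at -5.26 (adjusted p = 0.041). With each library left out in turn, that count ran from 0 to 1, that of the lines in culture from 8 to 9, in BALB/c mice from 7 to 9, in SCID-beige mice from 7 to 10, of D2.1 tumors against culture from 6 to 11 and of D2A1 tumors against culture from 10 to 11. The host comparisons and their interaction stayed at 0. With the replicate block the counts were 9 in culture, 9 in BALB/c mice and 11 for D2A1 tumors against culture. In these the numbers were treated as pairing the libraries, and the block changed no call there beside those of Hoxa3 and Hoxa6 given above. Where same-numbered libraries did not all correlate over 0.1, the block gave 8 calls between the lines in SCID-beige mice. It gave 7 for D2.1 tumors against culture, without Hoxb6 (adjusted p = 0.13), and 0 in the other comparisons. Counts under 3 per library limit clusters B, C and D in culture to bounds.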
